A study of Homo sapiens with 6 samples.

Results

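Hypoxia-inducible genes that do not encode glycolytic enzymes were examined in the established hepatocellular carcinoma line Huh-7, with and without forced expression of the small GTPase RAC3. The set comprised 10 of the 20332 genes in the count table: HIF1A and EPAS1, which encode the alpha subunits of the hypoxia-inducible factors, and the induced genes CA9, CA12, BNIP3, BNIP3L, MXI1, NDRG1, ANKRD37 and ADM. They were chosen by name and from earlier results of the same comparison, so that their own differences between the groups are given as a description without a test. Of the 10 genes, 9 were among the 12941 genes tested across the table, and ANKRD37 fell below the filter on low counts. The 3 RAC3 samples came from Huh-7 cells with stable, lentiviral RAC3 overexpression, and the 3 negative controls, labelled WT, from the matching control cells, whose vector is not given in the sources used here. RAC3 samples 2 and 3 carry the genotype labels RAC4 and RAC5 but RAC3 in their titles, which were followed. No oxygen tension or hypoxic treatment is given in the labels for any sample. The design speaks of independent RNA samples but not of separate cultures, so the spread between these samples may be technical. P-values rest on that spread and on the spread of all other genes, which edgeR combines.

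In oxygenated cells the alpha subunits are hydroxylated by prolyl hydroxylases, bound by the VHL ubiquitin ligase and degraded. When oxygen is short they accumulate, pair with ARNT and bind hypoxia response elements, whose core reads A or G followed by CGTG. Among the targets, CA9 encodes a carbonic anhydrase of the cell surface that hydrates carbon dioxide and acidifies the surroundings of the cell, and it is widely used as a marker of tumour hypoxia. BNIP3 and BNIP3L are mitochondrial outer membrane proteins that recruit the autophagy machinery, MXI1 pairs with MAX and antagonises MYC, and ADM is the precursor of the vasodilator peptide adrenomedullin.

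The stretches of the promoters that hold the core letters are shown because these are the letters through which the hypoxia-inducible factors are known to bind DNA. Promoters were taken from RefSeq on GRCh38.p14 for 8 of the 10 genes, with 11 start sites. The 250 bases before each start were searched for ACGTG and GCGTG on both strands (CACGT and CACGC when read on the other strand). The promoters of BNIP3L and NDRG1 were not part of this search, so nothing is said about their motifs. Each sequence runs 5′ to 3′ on the strand of its gene, and the capitals mark the matched letters.
CA9, chr9:35673897-35673926, plus strand: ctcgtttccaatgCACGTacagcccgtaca
ANKRD37, chr4:185396676-185396705, plus strand: ctcCACGTGccagtgtttgtgtACGTGcgg
BNIP3, chr10:131982014-131982076, minus strand: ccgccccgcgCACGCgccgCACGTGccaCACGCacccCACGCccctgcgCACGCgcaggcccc
MXI1, second start site, chr10:110210069-110210157, plus strand: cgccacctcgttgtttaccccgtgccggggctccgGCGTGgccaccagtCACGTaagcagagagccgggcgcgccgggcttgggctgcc
ADM, chr11:10304959-10304988, plus strand: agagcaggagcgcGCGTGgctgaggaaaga
CA12, chr15:63382064-63382093, minus strand: ggcggatctcaccCACGCctgccagcagct

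ACGTG was found in 4 of the 8 searched genes, namely CA9, ANKRD37, BNIP3 and MXI1. In CA9 it begins 18 bases before the RefSeq start site. The stretches shown for CA9, ANKRD37, ADM and CA12 overlap annotated exons in GENCODE release 29, which places starts of these genes further upstream than RefSeq does, so they come before the RefSeq start only. In ANKRD37 it occurs in the palindrome CACGTG, which was counted once on each strand, and again nearer the start. In BNIP3 the same palindrome lies among 4 copies of GCGTG. ADM, CA12, EPAS1 and HIF1A held GCGTG alone. Of 10439 tested genes with a promoter entry, 28.8% held ACGTG and 64.9% held either motif before at least 1 start site. At a fold change above 1.5 and unadjusted p below 0.05 (edgeR), 259 of these genes were lower in RAC3 cells and 156 higher. The shares were 24.7% and 57.1% of the lower genes and 22.4% and 47.4% of the higher ones. MXI1 has 3 start sites in RefSeq and HIF1A has 2, which gives them more bases to match in. A match of letters is a description of these windows and not evidence of a bound factor.

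Stable overexpression was visible in RAC3 itself (chr17:82031624-82034204, GRCh38). It measured 35.6, 31.3 and 32.8 CPM (counts divided by library size, itself scaled with edgeR's TMM factors) in the negative controls 1, 2 and 3, and 233, 239 and 225 CPM in the RAC3 samples. The log2 fold change was 2.81 ± 0.0574 (standard error), with an adjusted p of 9.6e-18 in edgeR's quasi-likelihood test over all genes. The libraries held 13855762 to 18199888 counts each, and a count of 0 allowed up to 0.167 to 0.215 CPM, which covers counting error only. The summed level of 12 hepatocyte markers was 6478 to 6519 CPM in the controls and 6045 to 6618 CPM in the RAC3 samples. Among markers of other cell types, 5 leukocyte markers summed to 43.3 to 50.7 CPM and 40.8 to 42.1 CPM, 4 endothelial markers to 2.53 to 3.15 CPM and 2.69 to 3.76 CPM, and 6 fibroblast and stellate cell markers to 86.7 to 86.9 CPM and 95.4 to 100.7 CPM. No marker was at 0 in all 6 samples, but PTPRC, which defines leukocytes, had at most 9 counts in a sample, and the endothelial KDR had 0 in 5 of 6. The sums hide opposite changes at an adjusted p below 0.05 (edgeR), where 15.3% of all genes fell and 13.3% rose. Of the 12 hepatocyte markers 4 fell and 4 rose. The tested leukocyte markers had 1 fall and 1 rise (CD14 fell, CD68 rose). So did the tested fibroblast and stellate cell markers (COL1A1 fell, COL1A2 rose). CD14 made up most of the leukocyte sum. The part of these marker differences in the results was not tested.

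In RAC3-overexpressing cells CA9, MXI1, BNIP3, NDRG1, BNIP3L and ANKRD37 lay below all 3 negative controls, whereas CA12, ADM, HIF1A and EPAS1 overlapped with them. CA9 had the largest difference of the 10 genes, 5.87-fold, followed among the tested genes by MXI1 with 2.46-fold and BNIP3 with 1.81-fold. With the study's thresholds, a fold change above 1.5 and an unadjusted p below 0.05, the edgeR fit called 605 genes (4.68%) differentially expressed. Of these 387 were lower (2.99%) and 218 higher (1.68%). The study itself reported fewer genes, with nearly equal numbers lower and higher. Scaling by library size alone gave 315 lower and 296 higher, with 4 hypoxia genes again lower. CA9, MXI1, BNIP3 and NDRG1, 4 of the 9 tested, were among the lower genes and none among the higher. At an adjusted p below 0.05 the background was 28.5% of all genes, 15.3% lower and 13.3% higher, and the same 4 genes and BNIP3L were on the lower side. The groups did not overlap in 21.6% of all genes with RAC3 samples lower and in 20.9% with RAC3 samples higher. The median log2 fold change was -0.44 over the 9 tested genes and 0.00 over all genes tested. As the genes were picked with this comparison in view, nothing is read from these counts. In bulk RNA a smaller number of cells expressing a gene and less RNA per cell cannot be told apart.

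**Figure D1:**
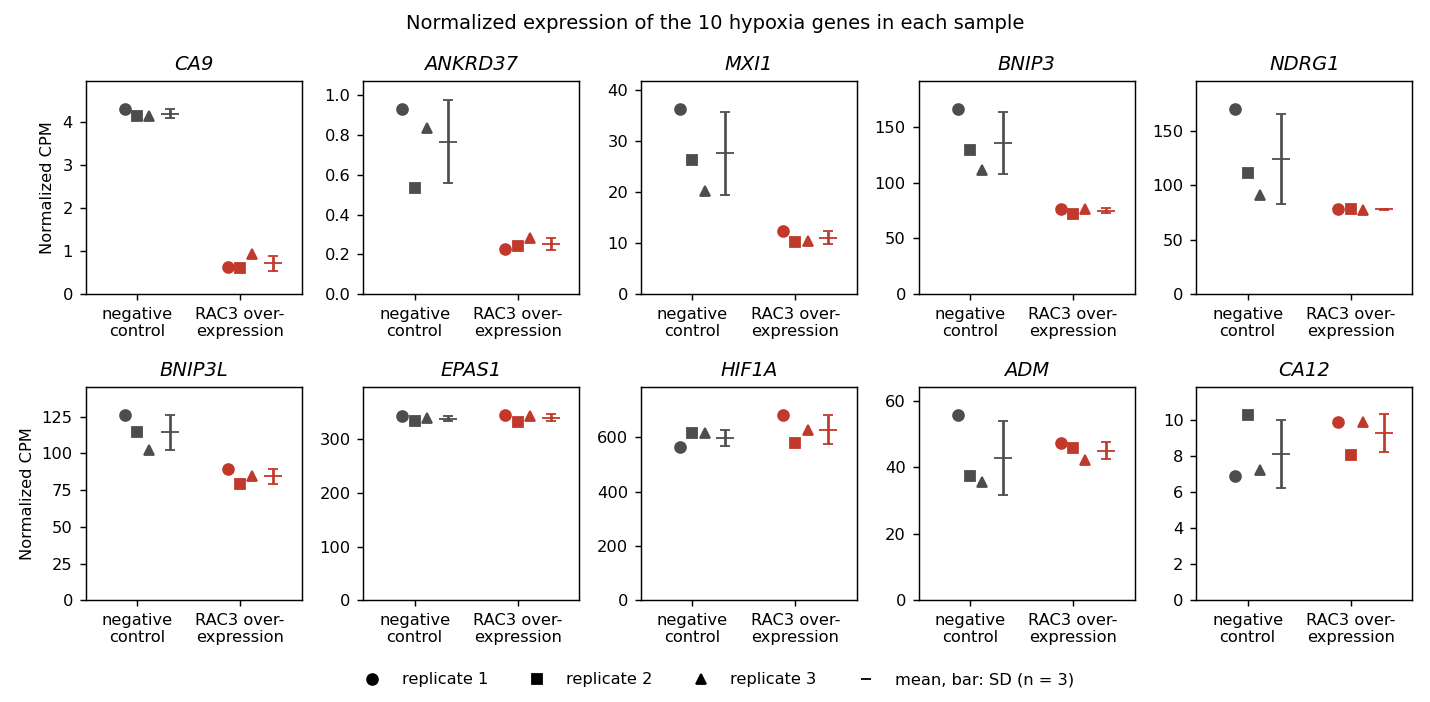
Normalized expression of the 10 hypoxia genes, 1 panel per gene with its own linear axis from 0, in CPM. Points are single samples, horizontal ticks are group means and bars are SD (n = 3 per group). CA9 lies at 4.12 to 4.30 CPM in the controls and 0.607 to 0.922 CPM in RAC3 cells, and NDRG1 is spread out in the controls but not in RAC3 cells.

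The transcription factors overlapped between the groups. HIF1A (chr14:61695513-61748259, plus strand, 17 merged exons), the more widely expressed alpha subunit, measured 566, 615 and 616 CPM in the controls and 683, 578 and 626 CPM in the RAC3 samples. RAC3 sample 1 was highest and control 1 lowest. HIF1A had a log2 fold change of 0.07 ± 0.0512, which turned to -0.10 once each library's trend with GC content was removed. EPAS1 (chr2:46293667-46386703, plus strand, 20 merged exons), which encodes HIF-2 alpha, measured 342, 333 and 338 CPM in the controls and 345, 333 and 342 CPM in RAC3 cells. These 6 values lay within a few percent of each other, with a log2 fold change of 0.01 ± 0.0396. The ratio of HIF1A to EPAS1 on the FPKM scale, which divides by gene length, was 2.16 to 2.42 in the controls and 2.28 to 2.59 in RAC3 cells. Since the alpha subunits are controlled mainly by protein stability, the RNA levels do not report the amount of either protein.

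CA9 (chr9:35673856-35681159, plus strand, 11 merged exons) had 60, 62 and 74 counts in the controls 1, 2 and 3 and 11, 10 and 13 counts in the RAC3 samples. On the CPM scale these were 4.30, 4.13 and 4.12 against 0.619, 0.607 and 0.922. All 3 controls were nearly equal, and the RAC3 samples were far below them, with sample 3 the highest of the 3. The log2 fold change was -2.55 ± 0.290, the fifth lowest of the 12941 genes tested. It stayed between -2.75 and -2.45 with any sample left out. The exons of CA9 share 38.5% of their bases with ARHGEF39 on the opposite strand, and with a library kit that does not mark strand the reads of the shared bases cannot be told apart. ARHGEF39, a guanine nucleotide exchange factor gene, measured 24.3, 24.0 and 24.9 CPM in the controls and 23.1, 22.8 and 22.7 CPM in RAC3 cells, a log2 fold change of -0.10 ± 0.0799 (adjusted p = 0.406, edgeR). It is thus more abundant than CA9 in every sample, and its part in the CA9 counts was not tested.

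CA12 (chr15:63321378-63382161, minus strand, 13 merged exons), the other cell surface carbonic anhydrase of the set, measured 6.87, 10.2 and 7.19 CPM in the controls. In the RAC3 samples it measured 9.84, 8.01 and 9.85 CPM. Control 2 was the highest of the 6 samples and controls 1 and 3 the lowest, so that the groups overlapped. CA12 had a log2 fold change of 0.19 ± 0.160. On the FPKM scale CA12 stood at 0.621 to 1.09 times the level of CA9 in the controls and at 4.32 to 5.48 times that level in RAC3 cells. CA12 exceeded CA9 in 1 of 3 controls and in 3 of 3 RAC3 samples. The gene length implied by the CA12 FPKM values ran from 3.53 kilobases in control 2 to 4.38 kilobases in RAC3 sample 1. These ratios therefore depend on that length as well as on the counts.

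Around the carbonic anhydrases, 13 of 21 genes listed for carbonic anhydrases and acid-base transport were tested. At an adjusted p below 0.05, 3 fell and 4 rose, against 15.3% and 13.3% of all genes, with a median log2 fold change of 0.10. SLC16A3, which encodes the lactate exporter MCT4, fell by 0.74 on the log2 scale (adjusted p = 2.9e-06). CA4, a membrane-anchored carbonic anhydrase, rose by 0.66 (adjusted p = 6.8e-04, edgeR).

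BNIP3 (chr10:131966455-131982013, minus strand, 5 merged exons) measured 166, 129 and 112 CPM in the controls and 76.5, 72.2 and 76.0 CPM in the RAC3 samples. The controls were spread over a wide range with control 1 the highest, and the RAC3 samples lay close together below all of them. This gave a log2 fold change of -0.85 ± 0.0941, and -0.69 without control 1. GENCODE release 29 lists 39 processed pseudogenes of BNIP3, whose reads could be split from or added to the gene, so its level is uncertain to that extent. These pseudogenes were not analysed here.

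BNIP3L (chr8:26382898-26505636, plus strand, 10 merged exons), the closest relative of BNIP3 and known for clearing mitochondria from maturing red cells, measured 126, 115 and 102 CPM in the controls. In RAC3 cells it measured 89.3, 79.0 and 84.7 CPM. The RAC3 samples were below every control, by less than in BNIP3. The log2 fold change was -0.44 ± 0.0680, under the fold threshold of 1.5. BNIP3L shares 7.66% of its exon bases with PNMA2 on the opposite strand, which itself had a log2 fold change of -0.25 ± 0.0761 (adjusted p = 0.0207, edgeR), and the part of PNMA2 reads in BNIP3L was not tested. The FPKM ratio of BNIP3 to BNIP3L was 1.70 to 2.02 in the controls and 1.27 to 1.49 in RAC3 cells. The gene length implied by the BNIP3L FPKM values ran from 2.21 kilobases in RAC3 sample 1 to 2.62 kilobases in control 3. The ratio therefore depends on that length as well as on the counts.

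Of the other mitophagy and autophagy receptors and their partners, 19 of 22 listed genes were tested. At an adjusted p below 0.05, 6 fell and 3 rose, against 15.3% and 13.3% of all genes, and none passed the fold change of 1.5. Their median log2 fold change was -0.07, and single genes lay between -0.35 and 0.27.

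MXI1 (chr10:110207605-110287365, plus strand, 10 merged exons) measured 36.4, 26.3 and 20.2 CPM in the controls and 12.5, 10.3 and 10.4 CPM in RAC3 cells. Control 1 stood highest, and even the lowest control was above every RAC3 sample. Its log2 fold change was -1.30 ± 0.157, or -1.06 without control 1. A further 4.45% of its exon bases overlap an antisense RNA, AL360182.2, that was not analysed here. All 12 listed genes of the MYC and MAX network were tested, of which 1 fell and 2 rose at an adjusted p below 0.05, a share of 25.0% against 28.5% of all genes, and none passed the fold change of 1.5. As a list they were thus near the background, and single genes are given as such. MYC, the factor that MXI1 antagonises, rose by 0.46 ± 0.0561 on the log2 scale (adjusted p = 7.4e-06), and MXD4, another MAX partner and MYC antagonist, rose by 0.29 ± 0.0517 (adjusted p = 3.6e-04, edgeR). MYCN fell by 0.27 (adjusted p = 0.031), a call that was lost in 6 of 14 other settings, with an adjusted p of up to 0.178, and with the GC trend removed (adjusted p = 0.268). MAX itself had a log2 fold change of 0.09 ± 0.0866 (adjusted p = 0.496).

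NDRG1 (chr8:133237171-133302022, minus strand, 25 merged exons), a stress-responsive gene also induced by iron depletion, measured 170, 112 and 90.7 CPM in the controls. In RAC3 cells it measured 78.5, 77.8 and 77.4 CPM. Its RAC3 samples were almost identical, while control 1 lay far above the other controls. Over all samples the log2 fold change was -0.67 ± 0.136. Without control 1 it was -0.38 and below the fold threshold, and without control 3 it was -0.86. The other 3 NDRG genes of the table were tested. NDRG3 fell by 0.22 (adjusted p = 0.0235, edgeR), lost in 5 of 14 other settings with an adjusted p of up to 0.0918. NDRG4 and NDRG2 had log2 fold changes of -0.29 (adjusted p = 0.0771) and -0.14 (adjusted p = 0.31).

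ANKRD37 (chr4:185396021-185400628, plus strand, 5 merged exons), a small ankyrin repeat gene, had 13, 8 and 15 counts in the controls and 4 counts in each RAC3 sample. The groups did not overlap, but so few counts leave a wide error, and the log2 fold change from a fit without the filter was -1.60 ± 0.703. Its exons share 35.2% of their bases with UFSP2 on the opposite strand, a gene of protein modification by UFM1, with 80, 80 and 90 counts in the controls and 73, 72 and 57 in RAC3 cells. UFSP2 had a log2 fold change of -0.36 ± 0.179 (adjusted p = 0.148, edgeR), and its part in the ANKRD37 counts was not tested.

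ADM (chr11:10304680-10307397, plus strand) measured 55.7, 37.4 and 35.6 CPM in the controls and 47.2, 45.6 and 42.3 CPM in RAC3 cells. Control 1 was the highest of the 6 samples and controls 2 and 3 the lowest, so that the RAC3 samples fell between them. The log2 fold change was 0.08 ± 0.115, and its sign depended on which control was left out, with 0.30 without control 1, -0.01 without control 2 and -0.05 without control 3. Of 12 listed genes of adrenomedullin signalling 5 were tested. At an adjusted p below 0.05 only 1 fell, a share of 20.0% against 28.5% of all genes. That gene was PAM, the enzyme that amidates the peptide, with a log2 fold change of -0.24 ± 0.0514 (adjusted p = 0.0019, edgeR). PAM was named after its values were seen because it was the only call of the list.

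**Figure D2:**
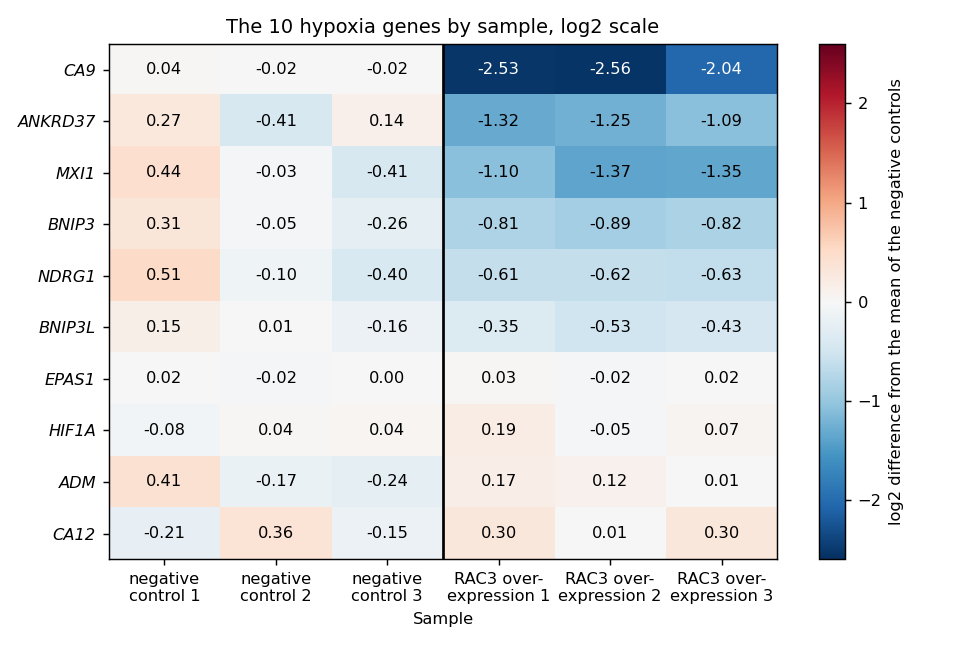
Each cell gives the log2 difference of a gene in a sample from the mean of the 3 negative controls (log2 CPM with a prior count of 2), blue below and red above that mean. The RAC3 samples are uniformly below in the upper 6 genes, from -2.56 in CA9 to -0.35 in BNIP3L, while the remaining 4 genes lie on both sides of 0 or close to it and control 1 is above the other controls in MXI1, BNIP3, NDRG1, BNIP3L and ADM.

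The negative controls differed among themselves in these genes. Spread was measured as the range of log2 CPM over 3 samples and compared with the 11221 genes that averaged 50 or more counts, 8 of the 10 genes among them. In the controls the median range was 0.57 for these 8 genes and 0.155 for all 11221, while in the RAC3 samples it was 0.17 and 0.155. NDRG1 (range 0.91) and MXI1 (0.85) lay at the 99.2 and 99.0 percentiles of the control ranges, ADM at 97.8, BNIP3 at 96.6 and CA12 at 96.5. In the RAC3 samples NDRG1 was at percentile 1.43. Control 1 was the highest control in 6 of the 8 genes, against 36.8% of all 11221. The exceptions were HIF1A, where it was lowest, and CA12, where control 2 was highest. EPAS1 is counted among the 6 although its control range was only 0.04. CA9, too low for this comparison, had a control range of 0.06, smaller than that of every gene of the set except EPAS1. Its 60, 62 and 74 control counts carry counting error, so this range does not show that CA9 was unusually even.

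Across the 8 induced genes, the median deviation from the control mean was 0.29, -0.04 and -0.20 in the controls and -0.71, -0.76 and -0.72 in the RAC3 samples on the log2 scale. For HIF1A and EPAS1 the same measure stayed between -0.04 and 0.11 in all 6 samples.

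**Figure D3:**
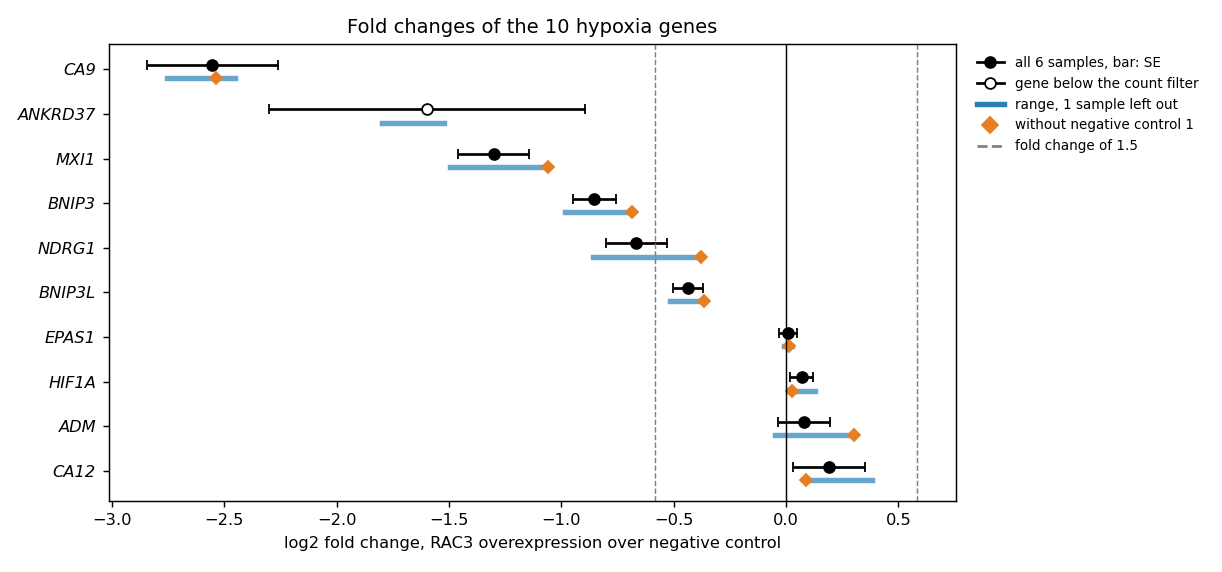
Log2 fold change of RAC3 overexpression over negative control for each gene. Circles with bars are the estimate from all 6 samples and its standard error (open for ANKRD37, below the count filter), blue lines span the estimates with 1 sample left out, diamonds mark the estimate without control 1, and dashed lines mark a fold change of 1.5. For ANKRD37 the blue line covers the 4 fits in which it passed the filter. NDRG1 moves from -0.67 to -0.38 without control 1, while CA9 stays near -2.55.

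Levels were compared between genes on the authors' FPKM scale. In the controls the mean order from the top was HIF1A (149 FPKM), BNIP3 (88.1), EPAS1 (64.3), NDRG1 (48.2), BNIP3L (46.6), ADM (28.4), MXI1 (14.2), CA9 (2.65), CA12 (2.13) and ANKRD37 (0.990). The ranges of EPAS1 and NDRG1, of NDRG1 and BNIP3L, and of CA9 and CA12 overlapped, so these neighbours could not be ordered. In RAC3 cells the order was HIF1A (163 FPKM), EPAS1 (67.3), BNIP3 (51.1), BNIP3L (36.7), NDRG1 (32.02), ADM (31.0), MXI1 (6.04), CA12 (2.37), CA9 (0.476) and ANKRD37 (0.324), where only NDRG1 and ADM overlapped. BNIP3 was thus above EPAS1 in every control and below it in every RAC3 sample. CA9 was a gene of low abundance in these cells even in the controls. The gene lengths implied by the FPKM values varied between samples, by up to 1.24-fold for CA12 and 1.19-fold for BNIP3L. The narrow gap in RAC3 cells between BNIP3L (33.4 FPKM at lowest) and NDRG1 (33.0 FPKM at highest) is therefore uncertain.

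Among the 11221 genes with at least 50 counts on average, the profile over the 6 samples that was nearest to that of CA9 belonged to ENSG00000290183, which has no symbol in the table, with a root mean square distance of 0.30 on the log2 scale. It was followed by PNCK, a calmodulin-dependent kinase gene (0.47), the zinc finger gene ZNF467 (0.49), INHA, the inhibin alpha subunit (0.57), and LGALS14, a galectin gene (0.60). For comparison the distance from CA9 was 0.62 for ANKRD37, 0.64 for MXI1, 0.80 for BNIP3 and 1.31 for CA12.

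The machinery that controls the alpha subunits was examined next. All 17 listed genes of oxygen sensing and HIF regulation were tested. At an adjusted p below 0.05, 4 fell and 5 rose, against 15.3% and 13.3% of all genes. Their median log2 fold change was 0.05. Of the prolyl hydroxylase genes, EGLN3 fell by 0.34 ± 0.0694 (adjusted p = 0.00108) and EGLN2 rose by 0.27 ± 0.0608 (adjusted p = 0.00263, edgeR). EGLN1, the main oxygen sensor, had a log2 fold change of 0.14 ± 0.0574 (adjusted p = 0.082), VHL 0.01 ± 0.0545 (adjusted p = 0.922) and ARNT -0.04 ± 0.0673 (adjusted p = 0.704).

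HIF3A, which encodes the third alpha subunit, was the only gene of this list past the fold threshold, and fell by 0.997 ± 0.282 on the log2 scale (adjusted p = 0.0124, edgeR). The call was lost without control 1 and without RAC3 sample 2, where the adjusted p reached up to 0.0779. The coactivators CREBBP and EP300 rose by 0.24 (adjusted p = 0.00253) and 0.19 (adjusted p = 0.00511, edgeR). CITED2 rose by 0.16 (adjusted p = 0.0139, edgeR), a call lost without control 3. SIAH2, a ubiquitin ligase that acts on prolyl hydroxylases, fell by 0.36 (adjusted p = 0.0113), a call lost without control 1 (adjusted p = 0.0758) and with the GC trend removed (adjusted p = 0.0749). The ubiquitin ligase subunits CUL2 and ELOB had log2 fold changes of 0.24 and -0.19 with adjusted p of 0.045 and 0.0413, calls that were lost in 7 and 6 of 14 other settings, with an adjusted p of up to 0.286 and 0.203, and with the GC trend removed (adjusted p of 0.364 and 0.842).

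Beyond the set, 32 of 35 further hypoxia-induced genes outside glycolysis were tested. At an adjusted p below 0.05, 22 fell and 1 rose, against 15.3% and 13.3% of all genes. Past the study's thresholds 11 of 32 fell, against 2.99% of all genes, and the median log2 fold change was -0.45. The histone demethylase gene KDM4B fell by 0.63 on the log2 scale (adjusted p = 1.4e-06), STC2, a secreted glycoprotein gene, by 0.63 (adjusted p = 1.7e-05), and EFNA1, an Eph receptor ligand, by 0.98 (adjusted p = 8.3e-05, edgeR). DDIT4, an inhibitor of mTORC1, measured 112, 63.2 and 36.9 CPM in the controls and 23.1, 26.6 and 27.2 CPM in RAC3 cells, and fell by 1.45 (adjusted p = 1.6e-04). Control 1 was again the highest control, and without it the log2 fold change of DDIT4 was -0.96 and that of EFNA1 -0.67, both still past an adjusted p of 0.05. The 24 glycolytic hypoxia-induced genes were all tested. At an adjusted p below 0.05, 20 fell and none rose, against the same 15.3% and 13.3% of all genes, and their median was -0.47. PFKFB4, a regulator of glycolytic flux, measured 87.2, 36.7 and 19.7 CPM in the controls and 10.01, 9.77 and 8.93 CPM in RAC3 cells. It fell by 2.29 ± 0.344 (adjusted p = 6.9e-05, edgeR), or by 1.54 without control 1. SLC2A1, the glucose transporter GLUT1, fell by 1.31 ± 0.185 (adjusted p = 3.8e-05), or by 0.90 without control 1. As these lists were written with earlier results of the samples known, their counts are not independent evidence of a direction.

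**Figure D4:**
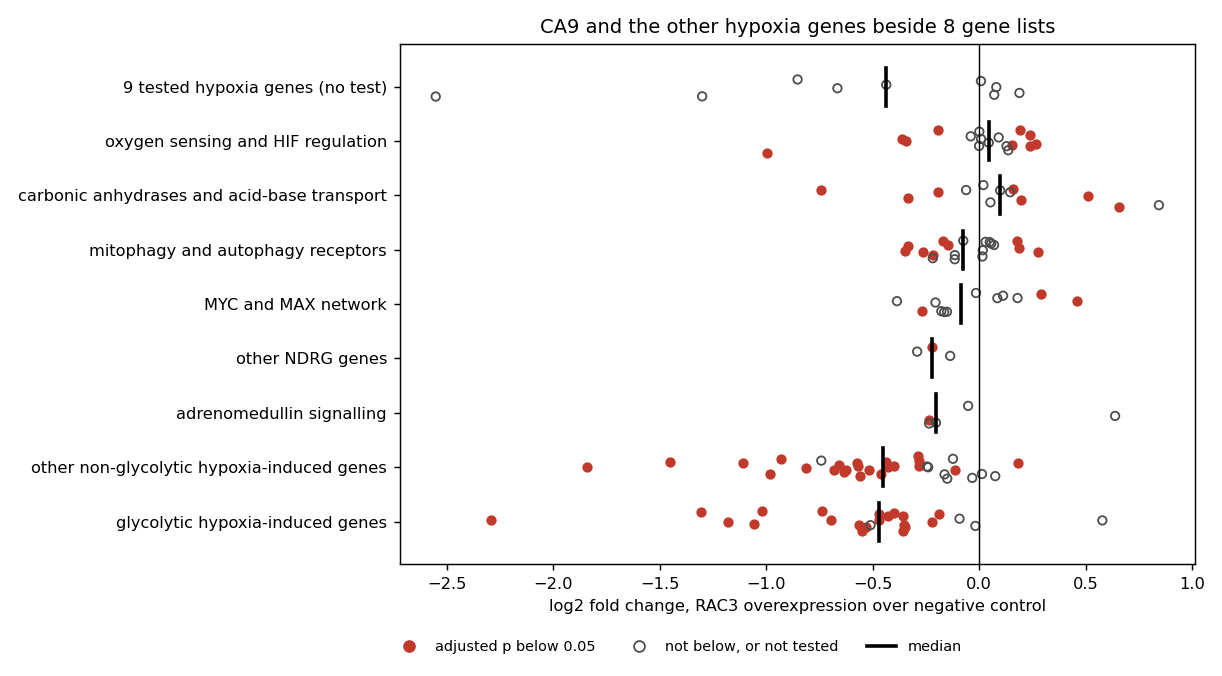
Log2 fold change of RAC3 overexpression over negative control for the 9 tested hypoxia genes and for 8 lists of related genes, 1 point per gene, with vertical jitter. Red points have an adjusted p below 0.05 (edgeR), open points do not or, in the top row, carry no test, and black bars are medians. The medians of the top row (-0.44) and of both hypoxia-induced lists (-0.45 and -0.47) lie below 0, and that of oxygen sensing and HIF regulation is at 0.05.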

How the data were processed

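Poly(A)-selected RNA of 6 Huh-7 samples was sequenced. The authors deposited raw counts per gene and sample, without normalization, and FPKM values computed by the authors. The submitters' processing notes name Bowtie2 2.2.8, HISAT2, StringTie 1.3.1 and DESeq2. Counting tool, build, annotation and FPKM gene lengths are not given in the sources used here.

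Counts were fitted with edgeR 4.0.16 (R 4.3.3): filterByExpr, TMM scaling and a two-sided quasi-likelihood test without covariates. P-values were adjusted by Benjamini-Hochberg across all 12941 genes. The model draws each gene's variability partly from all genes, so a standard error can be smaller than the gene's own samples would give. NDRG1, for example, had a log2 SD of 0.463 in the 3 controls, beside a standard error of its log2 fold change of 0.136. On simulated counts for 12833 genes, 184 of 199 changed genes were found (92.5%) and 8 unchanged genes were called. The simulation used the spread typical of each expression level, with no gene or group more variable than that. Its rates therefore do not describe genes with widely spread controls, such as NDRG1 and MXI1. An exact permutation test of 3 against 3 cannot go below p = 0.1.

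The 10 genes, 8 gene lists and 4 marker lists were chosen with earlier results of these data known. Named are the 10 genes, genes of the oxygen sensing, MYC and MAX, and NDRG lists, in other lists genes with adjusted p below 0.05 and fold change above 1.5 (at most 5 per direction), the 5 genes nearest to CA9, and RAC3. A gene that the rule would name is not reported here. Genes sharing at least 5% of exon bases with these, single markers and PAM were added after values were seen. Positions came from GENCODE release 29 (GRCh38), which held 20113 of 20332 identifiers.

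Alternatives were other scalings and filters, DESeq2 1.42.0, limma-voom (limma 3.58.1), a replicate block, a fold change above 2 and leaving out each sample. Removal of each library's GC trend (lowess, span 0.3) and fold changes from mean FPKM were added after the data were seen.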

Additional observations from a re-analysis of the deposited data

How the results depend on the processing

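Most results kept their direction, but not all kept their size. By a coarse label, 188 alternatives of the values that summarise a comparison counted as unchanged and 10 as moved. Of the single genes 145 counted as unchanged and 5 as moved. The label let sizable shifts count as unchanged. NDRG1 went from a log2 fold change of -0.67 to -0.38 without control 1. The number of genes with an adjusted p below 0.05 (edgeR) went from 3691 to 2630 without RAC3 sample 1. No gene of the set past the thresholds changed sign. Genes of the set short of them did: ADM without control 2 or 3, EPAS1 without control 2 or RAC3 sample 1, and HIF1A with the GC trend removed. Requiring a fold change above 2 left 182 differentially expressed genes, 2 of them in the set (CA9 and MXI1). With library size as the only scaling, 48.4% of the differentially expressed genes were higher in RAC3 cells against 36.0% with TMM, and no other NDRG gene passed (0). Removing the GC trend gave a median log2 fold change of the set of -0.58. With 1 sample left out, that median lay between -0.59 and -0.36, the number of the set past the thresholds between 3 (without control 1) and 5, and the number of other NDRG genes between 0 and 1. The count of 5 includes ANKRD37, which passed the filter in those fits. The cause of these shifts was not tested.

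The check made here cannot tell whether replicate numbers pair the samples, as it compared same-numbered samples only. Same-numbered samples had correlations of their deviations of -0.09, -0.05 and -0.02 over 11221 genes, and with the replicate block 615 genes were differentially expressed, 4 of them in the set, with a median of -0.44. Low counts limit CA9 and ANKRD37 most.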
